A study of Papio anubis with 8 samples.

Results

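Semaphorins are guidance proteins that turn, repel or attract growing axons, dendrites and migrating cells, and plexins and neuropilins are their receptors. The genes described here are the 20 semaphorins, 9 plexins and 2 neuropilins of the olive baboon (Papio anubis), 31 of the 37053 genes in the deposited table, chosen by gene symbol alone. They were measured by strand-specific sequencing of total RNA from the fetal hippocampus at 0.9 of gestation, in 8 libraries named AMB3 to AMB10. The sample title of AMB3 has another form of ending than the other titles, and its meaning is not given in the sources used here. The study concerned mothers of differing adiposity and leptin level, but the labels place no library in a maternal group and do not say that each came from another fetus. The 8 libraries were therefore compared one by one, with no test between groups and no mean over them.

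Plexins are transmembrane receptors whose inner part inactivates small GTPases of the Ras and Rap family, so that the cytoskeleton of a growth cone gives way. Class 3 semaphorins are secreted, and most of them reach plexins through a neuropilin, which binds the ligand but has little signalling of its own. Classes 4 to 6 are held in the membrane and class 7 by a lipid anchor, and most of these bind plexins directly. In the hippocampus, this system is known for sorting mossy fibres, the axons of dentate granule cells, into their layer and for pruning their surplus branches and spines.

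Levels are given as CPM, the estimated count scaled to a library of 1000000 with the trimmed mean of M-values. The range of a gene is the log2 CPM of its highest library minus that of its lowest. Exon lengths were not used here, so the levels of different genes are not compared with each other, only the same gene between libraries. Library totals lay between 40404878 and 71648654 counts, and the least counted member in any library, SEMA3B in AMB9, had 100 counts. All 31 members passed the filter on low counts, and for each of them the 95% Poisson intervals of the highest and lowest library were apart. These intervals cover counting error only.

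The libraries differed in their markers of brain regions, and these values stand beside every result below. PROX1, which keeps granule cells of the dentate gyrus in their fate, was present in all 8, from 14.4 CPM in AMB5 to 96.7 in AMB8, with 81.9 in AMB10 and 49.1 in AMB3. Of the 9 dentate markers, 5 had AMB8 and AMB10 as their 2 highest libraries. DSP was highest in AMB7 and ADAMTS18 in AMB3, the latter with a range of only 0.43. LCT and TDO2 did not pass the filter on low counts. Of the 9 CA field markers, 6 had AMB8 and AMB10 as their 2 highest libraries. Among them was FIBCD1, for which AMB8 held 400.1 CPM and AMB10 held 367, the others 9.01 to 84.1. MPPED1 and AMIGO2 had AMB8 and AMB10 as their 2 lowest and WFS1 as neither. CUX2, a gene of upper cortical layers, ran the other way: AMB8 held 12.1 CPM, AMB10 16.2 and AMB3 57.3, and the rest 139 to 277. Of the 9 cortical layer and subicular markers, 5 had AMB8 and AMB10 as their 2 lowest libraries and 2 as their 2 highest. AMB8 and AMB10 thus stood apart in many, not all, of these markers, and AMB3 did in PROX1 and CUX2. In the deposited log2 values the median of AMB3, AMB8 and AMB10 was 0 for all 15582 genes compared, the 31 members included, so it is a property of the whole table. The labels do not say why. In bulk tissue, fewer cells of a type and less RNA per cell cannot be told apart. The part of tissue composition in the results below was not tested.

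**Figure D1:**
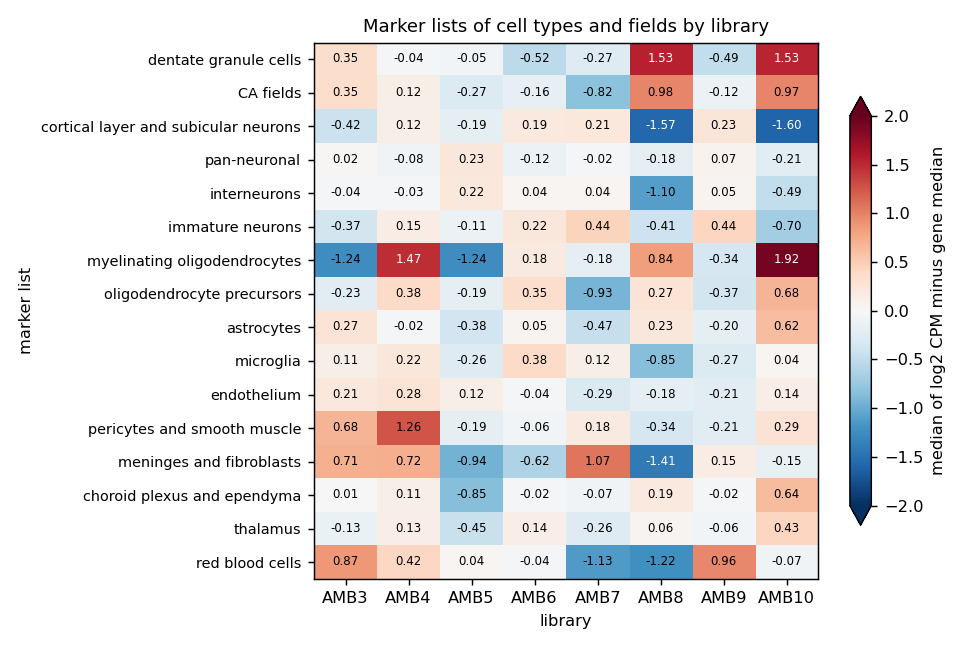
Median over each marker list of log2 CPM minus the gene's own median, by library (columns) and list (rows), with the value in each cell. AMB8 and AMB10 hold the highest values of the dentate list (1.53 in each) and the lowest of the cortical layer list (-1.57 and -1.60).

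The family varied more than the median gene, and unevenly. A log2 range of 1 or more was seen in 16 of the 31 members, against 36.1% of the 16874 tested genes. A range of 2 or more was seen in 5, against 9.0% of tested genes. The median range of the members was 1.14, against 0.77 over all tested genes. In the secreted class 3, 6 of 7 genes reached a range of 1 and 3 reached 2, and both neuropilins reached 1. None of the 6 class 4 and 4 class 6 genes reached a range of 1. Of 9 plexins, 5 did. The members whose range reached 2 were NRP1, SEMA3C, SEMA3D, SEMA3E and SEMA7A.

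**Figure D2:**
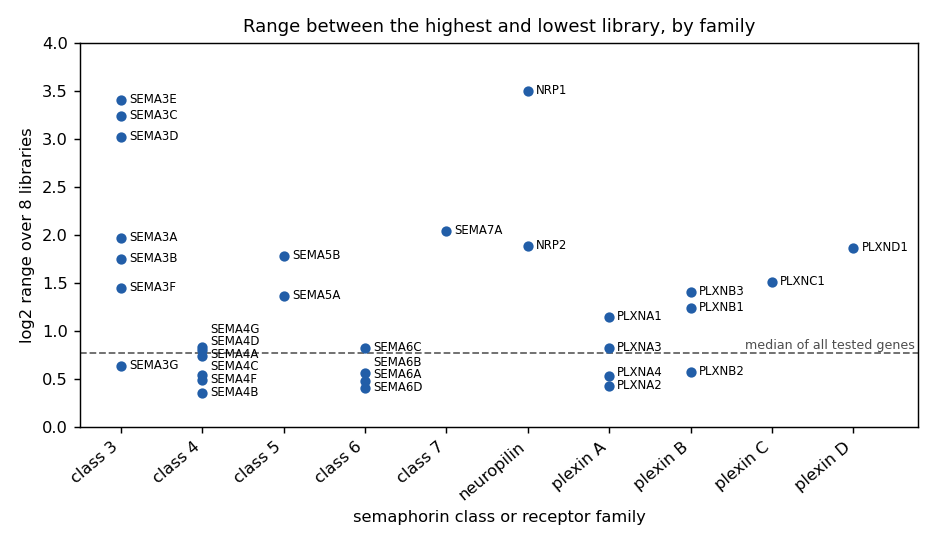
Range between the highest and lowest library in log2 CPM (vertical axis) for each of the 31 genes, by semaphorin class or receptor family. The dashed line is the median of all tested genes, 0.77, and the class 3 semaphorins and NRP1 reach the highest values, up to 3.49.

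NRP1, neuropilin 1, the receptor that binds SEMA3A and also vascular endothelial growth factor, had the widest range of all members. It lies on chromosome 11 from 93103073 to 93252988. AMB8 held 100.4 CPM, AMB10 93.1 and AMB3 63.2, and the level was 20.6 in AMB4, 18.5 in both AMB6 and AMB9, 14.7 in AMB5 and 8.89 in AMB7. The 3 highest libraries were all more than 3 times as high as any other, and the log2 range of 3.49 had a counting interval of 3.35 to 3.65. Among the 5 remaining libraries the range was still 1.21, owing to the low level in AMB7.

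NRP2, neuropilin 2, the receptor for SEMA3F (chromosome 10, 89597187 to 89712352), had the same 3 highest libraries in another order. It stood at 159 CPM in AMB3, 145 in AMB8 and 135 in AMB10. The other libraries lay close together, with 54.1 CPM in AMB9, 51.6 in AMB7, 50.4 in AMB6, 48.5 in AMB4 and 43.1 in AMB5. The log2 range of 1.89 therefore came to 0.33 when AMB3, AMB8 and AMB10 were left out. The neuropilins differed in AMB3, where NRP2 was as high as in AMB8 and NRP1 was not, and in AMB7, where NRP1 alone was low.

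**Figure D3:**
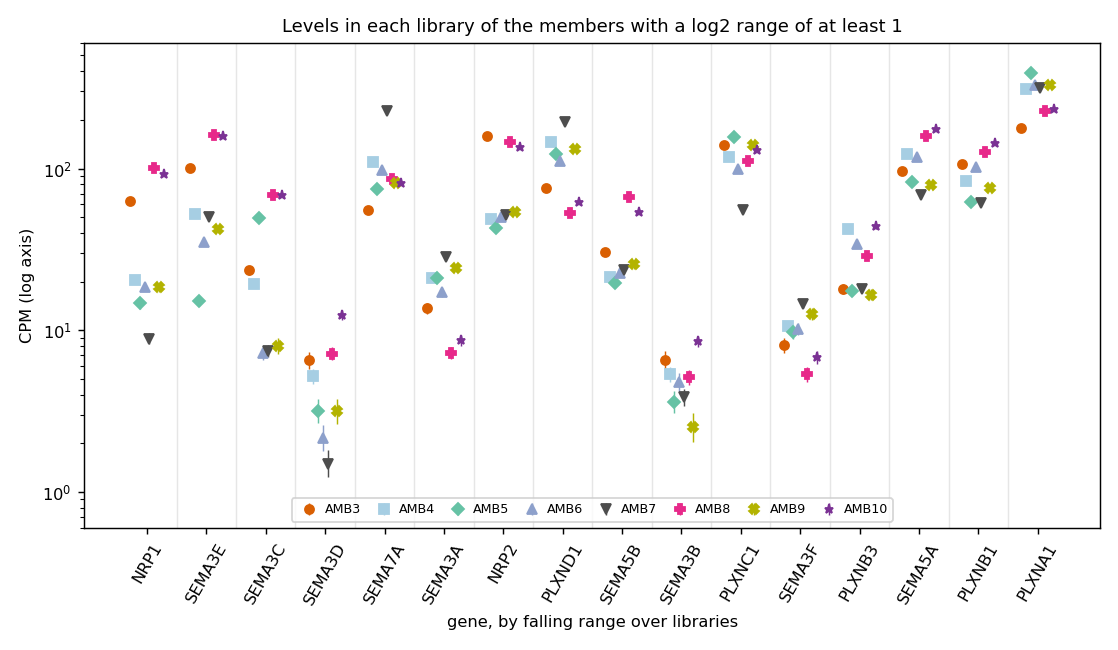
CPM on a log axis in each of the 8 libraries (symbols) for the 16 genes with a log2 range of at least 1, with vertical bars for the 95% Poisson interval. NRP1, NRP2 and SEMA3E are highest in AMB3, AMB8 and AMB10, and SEMA3A, SEMA3F and PLXND1 are lowest in these libraries.

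Of the secreted ligands, SEMA3E, which binds plexin D1 without needing a neuropilin, had the widest range. AMB8 held 161 CPM, AMB10 159 and AMB3 101, while the level was 52.3 in AMB4, 50.2 in AMB7, 42.1 in AMB9 and 35.0 in AMB6, with 15.2 in AMB5. The 3 highest libraries did not overlap with the rest, and AMB5 was set below all others, so that the range of 3.40 came to 2.20 without AMB5. SEMA3C, a ligand that acts through either neuropilin, shared the 2 highest libraries but not the lowest. It stood at 68.4 CPM in both AMB8 and AMB10, at 49.4 in AMB5, 23.5 in AMB3 and 19.2 in AMB4, and at 8.04 in AMB9, 7.46 in AMB7 and 7.24 in AMB6. AMB5 was thus the lowest library for SEMA3E and the third highest for SEMA3C. SEMA3C kept a range of 2.77 without AMB3, AMB8 and AMB10, and was the only member to stay above 2.

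SEMA3D, a secreted relative of SEMA3E, had the same 3 libraries at the top, though the intervals of AMB3 and AMB4 overlapped. AMB10 held 12.4 CPM, AMB8 7.16 and AMB3 6.51, followed by AMB4 with 5.19, AMB5 with 3.18, AMB9 with 3.15, AMB6 with 2.16 and AMB7 with 1.50. The value of AMB7 rests on 107 counts, and the range of 3.02 had a counting interval of 2.68 to 3.43. SEMA3B is another secreted ligand and the family member nearest to SEMA3F on chromosome 2. It spanned 2.52 CPM in AMB9 to 8.54 in AMB10. The level was 6.56 in AMB3, 5.34 in AMB4, 5.14 in AMB8, 4.80 in AMB6, 3.85 in AMB7 and 3.62 in AMB5. Like SEMA3D, SEMA3B had AMB10 highest, followed by AMB3, AMB4 and AMB8, though in another order. AMB5, AMB6, AMB7 and AMB9 were the lowest for both genes, but for SEMA3B the intervals of AMB8 and AMB6 overlapped. The range of SEMA3B, 1.75, had an interval of 1.36 to 2.17.

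SEMA3A and SEMA3F were lowest in the 3 libraries in which the neuropilins that bind them were highest. SEMA3A, the first known collapsing factor of growth cones and the ligand of NRP1 with A-type plexins, was lowest in AMB8 (7.25 CPM), AMB10 (8.65) and AMB3 (13.6). It was higher in AMB6 (17.2), AMB4 (20.9), AMB5 (21.1), AMB9 (24.4) and AMB7 (28.4). SEMA3F, the ligand of NRP2 that is known for pruning mossy fibre branches, was likewise lowest in AMB8 (5.35 CPM), AMB10 (6.79) and AMB3 (8.06). It stood at 9.78 in AMB5, 10.2 in AMB6, 10.6 in AMB4, 12.6 in AMB9 and 14.6 in AMB7. For SEMA3A the intervals of these 3 libraries lay below those of the other 5. For SEMA3F the interval of AMB3 (7.21 to 8.99 CPM) overlapped that of AMB5 (8.87 to 10.8 CPM). Both ligands were highest in AMB7 and AMB9. The summed level of the 6 immature neuron markers was also highest in AMB9 (2926 CPM) and AMB7 (2695). That sum was lowest in AMB10 (1231 CPM), AMB8 (1539) and AMB3 (1762). Of these markers, 3 had AMB8 and AMB10 as their 2 lowest libraries, while EOMES was highest in AMB8 and at 0 in AMB7. The part of immature neurons in the SEMA3A and SEMA3F levels was not tested. Among the 5 libraries without AMB3, AMB8 and AMB10, SEMA3F and NRP2 did not run in opposite directions: both had AMB9 and AMB7 highest and AMB5 lowest. Their ranges were 1.96 for SEMA3A and 1.44 for SEMA3F, and came to 0.72 and 0.58 without AMB3, AMB8 and AMB10. SEMA3G, a class 3 ligand known from blood vessels, was the even member of its class, with AMB8 lowest at 15.4 CPM and AMB4 highest at 23.9. Its range of 0.63 came to 0.39 without AMB4.

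PLXND1, plexin D1, the receptor of SEMA3E in vessels and neurons (chromosome 2, 49014238 to 49066913), had the widest range of the plexins. AMB8 held 53.0 CPM, AMB10 61.9 and AMB3 75.5, while the level was 112 in AMB6, 123 in AMB5, 132 in AMB9, 145 in AMB4 and 193 in AMB7. Its lowest libraries were therefore those in which its ligand SEMA3E was highest. The range of 1.86 came to 0.79 among AMB4, AMB5, AMB6, AMB7 and AMB9. The 6 endothelial markers, none of them at 0, summed to between 151 CPM in AMB7 and 224 in AMB4, with 159 for AMB8. Of these markers, 2 (CDH5 and TEK) were lowest in AMB8, as PLXND1 was, and 3 were lowest in AMB7, where PLXND1 was highest. The summed level of the 9 cortical layer and subicular markers had the same order of libraries as PLXND1. That sum ran from 1363 CPM in AMB7 down to 758 in AMB10 and 665 in AMB8. Of these 9 markers, 5 had AMB8 and AMB10 as their 2 lowest libraries and 2 as their 2 highest. The part of vessel cells or of these neurons in the PLXND1 level was not tested.

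The 12 ligand and receptor pairs that were listed from general knowledge of the family showed no common direction. In 2 of them, SEMA4C with PLXNB2 and SEMA4D with PLXNB1, both partners were highest in the same library. In 3, the receptor was lowest exactly where the ligand was highest: SEMA3A with NRP1 in AMB7, SEMA3E with PLXND1 in AMB8, and SEMA7A with PLXNC1 in AMB7. For SEMA3A and NRP1 the converse held as well, since AMB8 had the lowest SEMA3A and the highest NRP1. Both partners were lowest in the same library for SEMA4D with PLXNB1 (AMB7) and for SEMA6A with PLXNA2 (AMB8). SEMA3C was not among the listed pairs. It was highest in AMB8 and then AMB10, as NRP1 was, while NRP2 was highest in AMB3. Of all tested genes, 15.1% were lowest in AMB7 and 12.3% in AMB8, and 12.1% were highest in AMB6 and 16.7% in AMB10. No share over other pairs of genes was worked out. The counts of pairs are statements on ranks over 8 libraries, and they were not tested.

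**Figure D4:**
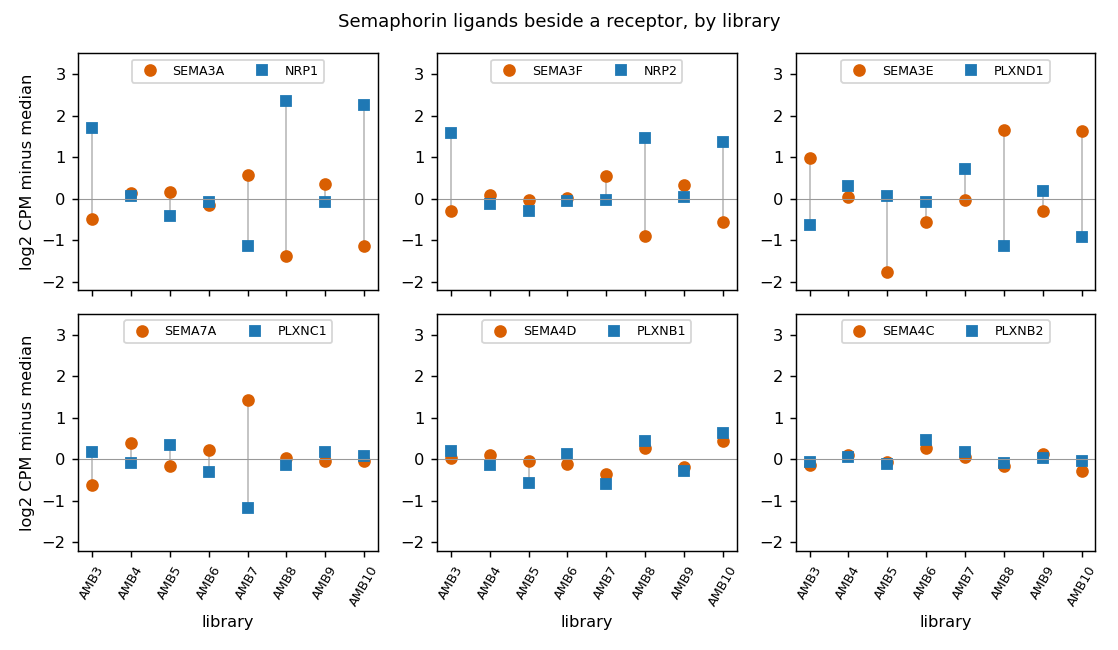
Log2 CPM minus the gene's median over the 8 libraries (vertical axis) for a ligand (circles) and a receptor (squares) in each library, for 6 of the 12 pairs. SEMA3A and NRP1 lie far apart in AMB8, at opposite sides of 0, whereas SEMA4D and PLXNB1 both have their highest point in AMB10.

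SEMA7A, the lipid-anchored semaphorin that can act through beta 1 integrins as well as plexin C1, stood out in AMB7. It was at 226 CPM there, against 111 in AMB4, 97.9 in AMB6, 86.1 in AMB8, 81.7 in AMB9, 81.3 in AMB10, 75.0 in AMB5 and 55.0 in AMB3. Its range of 2.04 came to 1.01 without AMB7 and to 1.59 without AMB3, so either library decided whether it reached 2. PLXNC1, its plexin receptor (chromosome 9, 88586125 to 88745567), had its lowest level in the same library. It was at 55.2 CPM in AMB7, while the others held 99.5 in AMB6, 112 in AMB8, 117 in AMB4, 131 in AMB10, 139.6 in AMB9, 139.7 in AMB3 and 157 in AMB5.

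The range of PLXNC1 was 1.51, and 0.64 without AMB7. The gap between AMB7 and the next library took up 0.564 of the whole range, above Dixon's 95% critical value for 8 values. PLXNC1 was the only member of the 31 with such a gap at either end, where 5.08% of tested genes had one. The gene CEP83 overlaps PLXNC1 on the opposite strand, at no more than 17.9 CPM in any library, and the other genes that overlap a member reached at most 4.24 CPM. Whether the counting used strand is not given in the sources used here. AMB7 also had the highest summed level of the 6 meningeal and fibroblast markers (748 CPM, against 187 to 615 elsewhere, none of them at 0). PTGDS alone held 298 CPM of this sum. PTGDS and COL1A2 were highest in AMB7, but COL1A1 and COL3A1 in AMB4, DCN in AMB3 and LUM in AMB9. The 6 astrocyte markers had their lowest sum in AMB7 (2810 CPM, against 3171 to 6159), and 5 of them were lowest there. All 7 oligodendrocyte precursor markers were lowest in AMB7, with a sum of 204 CPM against 270 to 614 elsewhere. Of the 31 members, 6 were lowest in AMB7, where 15.1% of tested genes were: NRP1, PLXNB1, PLXNC1, SEMA3D, SEMA4D and SEMA5A. The part of any of these lists in the levels of SEMA7A or of these 6 genes was not tested.

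The class 5 semaphorins, membrane proteins with thrombospondin repeats, were both highest in AMB8 and AMB10. For SEMA5B, AMB8 held 66.9 CPM, AMB10 54.1 and AMB3 30.3, and the other libraries 19.5 to 25.5. SEMA5A, which is known to limit synapse number on dentate granule cells through plexin A2, had 176 CPM for AMB10, 158 for AMB8, then 122 in AMB4, 118 in AMB6, 96.3 in AMB3, 83.1 in AMB5, 79.3 in AMB9 and 68.5 in AMB7. Among AMB4, AMB5, AMB6, AMB7 and AMB9 the range of SEMA5B was 0.39 instead of 1.78, and that of SEMA5A 0.84 instead of 1.36. PLXNA2 itself was even, with 175 CPM in AMB8 and 235 in AMB4 as its extremes.

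B-type plexins differ from the A type in that they also activate RhoA through exchange factors bound at their tail. PLXNB1, the receptor of SEMA4D, had 144 CPM for AMB10, 126 for AMB8, then 107 in AMB3, 102 in AMB6, 84.2 in AMB4, 76.3 in AMB9, 62.1 in AMB5 and 60.9 in AMB7. SEMA4D, which oligodendrocytes and immune cells carry, followed with 75.7 CPM in AMB10 and 67.4 in AMB8 down to 43.4 in AMB7. Both genes thus had AMB10 and AMB8 at the top and AMB7 at the bottom, with ranges of 1.24 and 0.80.

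PLXNB3, plexin B3, is known as a plexin of oligodendrocytes. AMB10 held 44.0 CPM, AMB4 42.2, AMB6 33.9 and AMB8 28.6, and the level was 18.1 in AMB7, 18.0 in AMB3, 17.5 in AMB5 and 16.6 in AMB9. The same 4 libraries led the summed level of the 8 myelin markers, where AMB10 held 4936 CPM, AMB4 4076, AMB8 2774 and AMB6 1885, against 772 to 1377 elsewhere. None of the 8 markers was at 0 in any library. The range of PLXNB3 was 1.40, and 1.34 without AMB3, AMB8 and AMB10. The part of myelinating cells in the PLXNB3 level was not tested. PLXNB2, a B-type plexin of neural progenitors, lay between 54.1 CPM in AMB5 and 80.6 in AMB6, and its range of 0.58 came to 0.30 without AMB6.

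Among the A-type plexins, which pair with neuropilins for class 3 ligands and bind class 6 semaphorins directly, only PLXNA1 had a range above 1. PLXNA1 was at 177 CPM in AMB3, 227 in AMB8 and 234 in AMB10, against 312 in AMB4, 316 in AMB7, 330.1 in AMB6, 330.5 in AMB9 and 391 in AMB5. The libraries with the most neuropilin thus had the least PLXNA1, and the range of 1.14 came to 0.32 without them. A single library decided whether it passed 1: the range was 0.78 without AMB3 and 0.90 without AMB5. PLXNA3, the partner of NRP2 for SEMA3F, lay between 38.6 CPM in AMB3 and 68.4 in AMB6, and its range of 0.82 came to 0.44 without AMB6. PLXNA4, which passes on SEMA3A and class 6 signals, was at 168 CPM in AMB6, 172 in AMB3 and at most 241 in AMB9.

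The class 6 semaphorins, transmembrane ligands of A-type plexins, had the lowest median range of the classes with several genes. SEMA6A, which with PLXNA2 and PLXNA4 sets the layer of mossy fibres, lay between 79.6 CPM in AMB8 and 111 in AMB3. SEMA6B ran from 151 CPM in AMB3 to 223 in AMB5, SEMA6C from 30.2 in AMB10 to 53.4 in AMB6, and SEMA6D from 70.5 in AMB8 to 93.4 in AMB4. The median log2 range of these 4 genes was 0.52. All 4 thus differed by less than the median tested gene except SEMA6C, with 0.82.

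Class 4, the membrane-bound ligands of mostly B-type plexins, had a median range of 0.64. SEMA4C, the ligand of PLXNB2, lay between 34.9 CPM in AMB10 and 50.7 in AMB6, the library in which PLXNB2 was also highest. SEMA4F, a neuronal member, was lowest in AMB10 (72.2 CPM) and AMB8 (79.7), and between 88.5 and 101 elsewhere. SEMA4G ran from 52.5 CPM in AMB10 to 93.3 in AMB3 with the widest range of its class, 0.83. SEMA4A, known from immune cells and the retina, ran from 35.7 CPM in AMB4 to 59.5 in AMB5. SEMA4B had the smallest range of all 31 members, 0.36, from 25.0 CPM in AMB3 to 32.0 in AMB6, and 0.24 without AMB6.

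**Figure D5:**
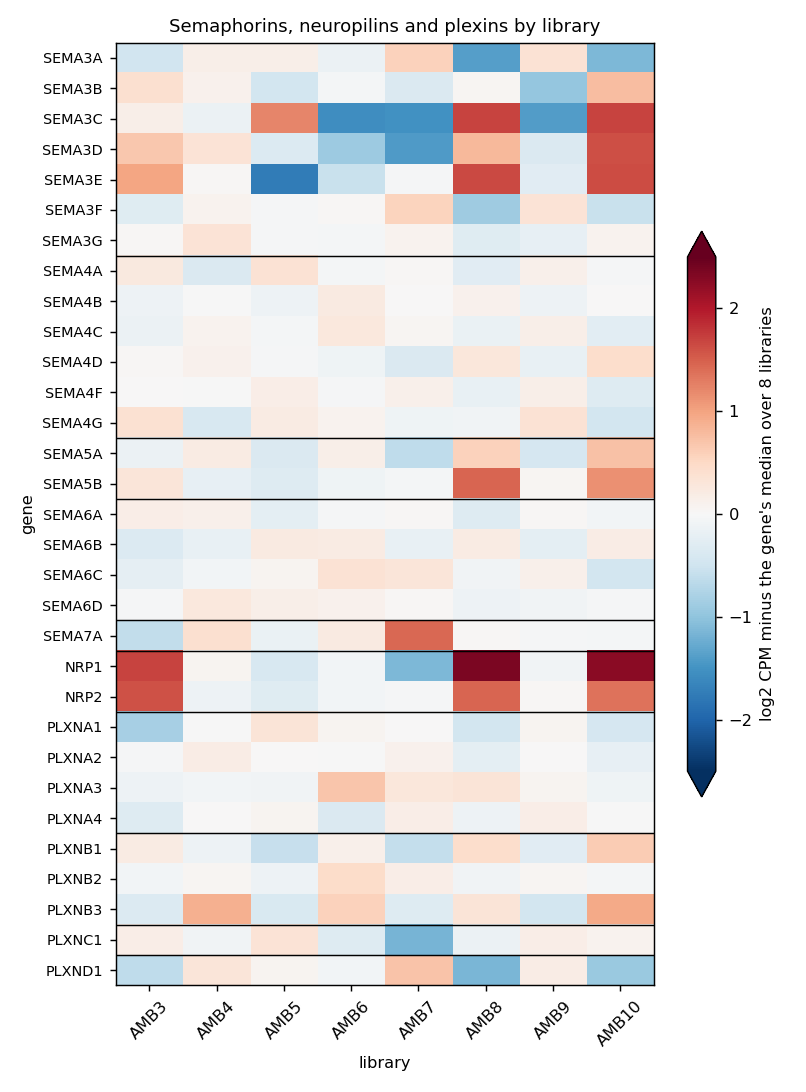
Log2 CPM minus each gene's median over the 8 libraries (colour) for all 31 genes (rows, by class and family) and 8 libraries (columns). The largest deviations are those of NRP1 in AMB8 (2.36) and AMB10 (2.25) and of SEMA3E in AMB5 (-1.75), while the class 4 and class 6 rows stay pale.

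Counted over the family, AMB8 and AMB10 together were the 2 highest libraries for 8 of 31 members, against 11.9% of tested genes. These were NRP1, PLXNB1, SEMA3C, SEMA3D, SEMA3E, SEMA4D, SEMA5A and SEMA5B. They were the 2 lowest for 6 members, against 11.6% of tested genes: PLXNA2, PLXND1, SEMA3A, SEMA3F, SEMA4C and SEMA4F. With AMB3 added, these libraries were the 3 highest for 6 members (9.71% of tested genes) and the 3 lowest for 7 (9.87%). The libraries in this count were picked after their values had been seen, and 31 genes are few, so the shares are a description.

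Some of the spread remained when the libraries that stood apart were left out. Without AMB8 and AMB10, 12 members reached a log2 range of 1 (26.5% of tested genes) and 5 reached 2 (5.46%). Without AMB3 as well, 8 members reached 1 (19.8% of tested genes) and only SEMA3C reached 2 (3.41%). These 8 were NRP1, PLXNB3, PLXNC1, SEMA3B, SEMA3C, SEMA3D, SEMA3E and SEMA7A.

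The members share no common place in the genome, but 4 class 3 ligands lie in a row. SEMA3C, SEMA3E, SEMA3A and SEMA3D span 4.47 Mb of chromosome 4 (assembly Panubis1.0, 59664179 to 64132556), all on the minus strand, with SEMA3A 0.322 Mb beyond SEMA3E and 0.810 Mb before SEMA3D. Neighbours in this row did not all share an order of libraries. SEMA3E and SEMA3D were highest in AMB8 and AMB10, and SEMA3A, which lies between them, was lowest there. SEMA3F and SEMA3B, 0.0789 Mb apart on chromosome 2, differed too: SEMA3F was highest in AMB7 and SEMA3B in AMB10. PLXNA3 and PLXNB3 lie 0.478 Mb apart on chromosome X and had AMB6 and AMB10 as their highest libraries.

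The wider pathway was described by 2 lists. Of 24 co-receptors and partner ligands, all tested, 9 reached a log2 range of 1, close to the share of all genes, and 1 reached 2. That gene was MET, the hepatocyte growth factor receptor that can pair with B-type plexins. MET stood at 133 CPM in AMB9 and 120.0 in AMB7, at 85.7 in AMB4, 52.3 in AMB10, 36.0 in AMB3, 32.6 in AMB6 and 30.4 in AMB8, and at 5.19 in AMB5. Its low value fell in the library where SEMA3E was also lowest.

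Other partners varied less than MET. DCC, a netrin receptor, was highest in AMB8 (161 CPM) and AMB10 (151), against 54.7 to 84.2 elsewhere. ITGA1, an integrin chain that binds SEMA7A with ITGB1, ranged from 1.15 to 3.53 CPM, and VEGFC, a growth factor that binds NRP2, from 1.15 to 3.27. The adhesion molecules CHL1 (455 to 761 CPM) and L1CAM (391 to 685 CPM), which join neuropilins in receptor complexes, had ranges of 0.74 and 0.81.

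Of the 39 intracellular genes with a row, 38 were tested, and 10 of these reached a range of 1, where 36.1% of all tested genes did, and none reached 2, where 9.0% did. RND1, a small GTPase that binds plexin tails, varied most, from 49.5 CPM in AMB10 and 65.4 in AMB8 to 169 in AMB7. MICAL1, an enzyme that oxidizes actin under plexin A signals, was at 9.15 CPM in AMB3, 15.2 in AMB10 and 17.9 to 25.5 elsewhere. LIMK2, a kinase of cofilin, ranged from 15.4 to 38.3 CPM, and SH3BP1, a Rac inactivator bound to PLXND1, from 1.89 to 5.62.

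The collapsin response mediators DPYSL2 and DPYSL3, which carry semaphorin signals to microtubules, lay between 1039 and 1363 CPM and between 1078 and 2199.8 CPM. The lowest libraries for DPYSL3 were AMB10 and AMB8, which were also the lowest for SEMA3A and SEMA3F. The median range of the intracellular list, 0.63, was below that of the semaphorins, plexins and neuropilins and below that of all tested genes, 0.77. The median member therefore varied more between libraries than the median signalling gene of the list. That did not hold in every class: the median range was 0.52 for class 6, 0.64 for class 4 and 0.675 for the A-type plexins. These are differences between medians and were not tested.

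Other marker lists give the frame for the members named above. For the dentate list, AMB8 summed to 373 CPM, AMB10 to 363 and AMB3 to 174, with 104 to 153 elsewhere, with the marker LCT at 0 in 7 of the 8 libraries. The CA field list ran from 643 CPM in AMB6 to 1058 in AMB10, a span that FIBCD1 made up in large part: without it the sums lay between 579 in AMB3 and 726 in AMB7, with 599 for AMB8 and 691 for AMB10. The cortical layer list ran from 665 (AMB8) to 1363 (AMB7) with 758 for AMB10, and neither list had a marker at 0. The summed level of the 8 interneuron markers was 317 CPM for AMB8 and 458 for AMB10, against 573 to 743 elsewhere. Of these, 5 had AMB8 and AMB10 as their 2 lowest libraries, whereas PVALB was highest in AMB10 and GAD2 second highest there. Endothelial markers lay between 151 and 224 CPM and pan-neuronal markers between 6780 and 8411. Of the choroid plexus and ependyma list, TTR and KCNJ13 were at 0 in AMB5.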

How the data were processed

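Total RNA (25 ng a library) from 8 hippocampal samples was made into strand-specific libraries, per the labels' protocols. The authors deposited 1 table with an estimated count and a normalized log2 value per RefSeq gene and library, per the file headers. The submitters' processing notes name DESeq but no version. Aligner, counting tool and build were not given in the sources used here. Counters that divide reads among similar genes can shift levels between them. Gene coordinates of all 31 members equalled those of RefSeq for Panubis1.0.

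Estimated counts were rounded to whole numbers. edgeR 4.0.16 (R 4.3.3) kept genes with at least 10 counts, scaled to library size, in all 8 libraries (filterByExpr) and gave TMM-scaled CPM and log2 CPM with a prior count of 2. Intervals are exact 95% Poisson intervals, combined at their outer ends for a range. The calculation was tested on simulated counts with known folds and counting noise only, so other spread between libraries was not covered. No 2 libraries agreed within counting noise (chi-square per degree of freedom at least 41.3). All members are named. From each pathway list the 4 genes of largest range and the 2 of highest median CPM are named. Members, lists and alternatives were chosen with earlier results of these data known. Alternatives were DESeq2 1.42.0 size factors, library totals, a prior count of 0.5, no filter, a minimum of 50 counts, the deposited log2 values, each library left out, and, added after the data were seen, the libraries that stood apart left out.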

Additional observations from a re-analysis of the deposited data

Results flagged for a closer look

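PLXNC1 in AMB7 was the only member value set apart by its gap to the next library, at 55.2 CPM where the other 7 libraries held 99.5 to 157 CPM. The gap was 0.564 of the whole range, above Dixon's 95% critical value for 8 values. Chance flags about 1 in 20 groups of values under this rule. It flagged 1 of the 31 members (3.23%) and 5.08% of all tested genes. In the same library SEMA7A was at its highest level.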

How the results depend on the processing

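The count of members with a log2 range of at least 1 was 16, and of at least 2 was 5, under DESeq2 size factors, library totals alone, a prior count of 0.5, the deposited log2 values and no filter. Leaving out 1 library at a time gave 15 or 16 and 4 or 5. A minimum of 50 counts kept all 31 members, and library totals alone left 10 members with AMB8 or AMB10 as their highest library, as before. Without AMB3, AMB8 and AMB10, an alternative added after the data were seen, the counts were 8 and 1, with fewer libraries to span. Over the first 4 of these settings a member's range moved by at most 0.10, for PLXNB2 with library totals. With no groups in the labels, no test of a maternal effect was made. Depth limits SEMA3B and SEMA3D most, whose lowest libraries had 100 and 107 counts.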
